A study of Mus musculus with 6 samples.

Results

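The mitochondrial solute carriers of family SLC25 were examined in the inguinal fat pad, which lies beneath the skin at the groin, in C57BL/6J males. Members were every gene that the array files name Slc25a followed by a number, together with Ucp2 and Ucp3, members that keep an uncoupling protein name. This rule gave 46 genes on 56 probes, of 34844 gene names on 55681 probes of the array, and no measured value entered it. RNA was hybridised to 1-colour Agilent arrays, with 1 array per sample and 3 arrays in each of 2 groups. In the treatment protocol, mice 2 months old first had 1 month of a high fat diet (60% of energy). They were next calorie restricted for about 3 weeks, down to the weight of chow-fed mice of equal age, and regained weight on the fatty diet, eaten freely. The arrays titled DIO_CR_WR spell out this sequence of obesity, restriction and regain. The arrays titled DIO are taken as the comparison mice, which had chow first and the fatty diet only in the last period; the protocol itself calls the regain mice DIO and the comparison mice CTR, so the groups here follow the titles. Both groups were therefore eating the fatty diet when the fat was taken, and neither is a lean control. The labels do not say whether a sample is 1 mouse or a pool, so p-values measure only the spread between these samples. The labelled ages run from 9 to 11 months in DIO_CR_WR and from 6 to 8 months in DIO. No age label occurs in more than 1 sample, and consecutive samples differ by exactly 1 month; whether the labels give real ages is unknown, and an age covariate could merely track sample order.

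SLC25 proteins sit in the inner mitochondrial membrane, which is otherwise tight, and exchange nucleotides, phosphate, organic acids, amino acids, carnitine esters and cofactors between the matrix and the cytosol. They are built of repeats of the same fold, each with a conserved signature. In fat cells they carry ATP out to the cytosol, bring fatty acyl groups in for oxidation and take citrate out for the making of fatty acids, while their relative Ucp1 gives brown fat its heat.

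Each value below rests on a 60-base probe, and a few are shown because they report carriers that the results turn on or share a run of bases. Capitals mark GAAGGAGT, a run chosen after the sequences were seen and searched on the printed strand.
Slc25a26: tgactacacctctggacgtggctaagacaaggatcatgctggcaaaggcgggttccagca
Slc25a31: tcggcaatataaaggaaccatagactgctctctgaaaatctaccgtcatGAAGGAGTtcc
Slc25a20: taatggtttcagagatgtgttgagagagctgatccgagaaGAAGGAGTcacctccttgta
Slc25a4: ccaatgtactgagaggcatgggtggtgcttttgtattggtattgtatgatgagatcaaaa
Slc25a44: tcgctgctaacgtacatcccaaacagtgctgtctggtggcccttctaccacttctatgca
Ucp3: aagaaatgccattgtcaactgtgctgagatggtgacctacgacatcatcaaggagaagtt
The run GAAGGAGT was in 2 of the 56 carrier probes, of Slc25a31 and Slc25a20, and in 66 of all 55681 probes (0.119%). On build mm9, per the array files, the Slc25a26 probe lies at chr6:94548392-94549185 on the plus strand, a span longer than its 60 bases. The Slc25a31 probe lies at chr3:40528804-40528863 and the Slc25a20 probe at chr9:108585399-108585458, both on the plus strand. The Slc25a4 probe lies at chr8:47292828-47292887 and the Slc25a44 probe at chr3:88224424-88224483, both on the minus strand, and the Ucp3 probe at chr7:107630399-107630458 on the plus strand. For Slc25a26 and Slc25a44 the printed probe is the dimmer of 2, while the gene's value below comes from the brighter one.

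Values are log2 signals relative to the 75th percentile of the same array, so 0 is the level at that percentile. That percentile was a signal of 6370, 6156 and 5403 on the DIO_CR_WR arrays, against 4452, 4238 and 4108 on the DIO arrays. Between 51.4% and 65.7% of probes were well above background in DIO_CR_WR, against 68.2% to 79.2% in DIO. All 3 DIO_CR_WR arrays and DIO replicate 1 were on 1 slide, and DIO replicates 2 and 3 on another. A fit with slide as a block therefore compares the DIO_CR_WR arrays with DIO replicate 1 alone, so each of its values rests on an arm of 1 array and is given as a description. The median log2 fold change of all 26178 genes tested was −0.20, and it was 0.30 when arrays were scaled to spike-in probes. The skeletal muscle markers were lower in 9 of 15 at an unadjusted p under 0.05 (against 21.8% of all genes), with a summed relative signal of 214 to 235 in DIO_CR_WR against 318 to 376 in DIO and each of the 15 well above background on every array. Brown and beige markers had a summed signal of 31.2 to 37.8 in DIO_CR_WR against 43.7 to 60.8 in DIO. Of these 8 markers, 2 were lower at an unadjusted p under 0.05 (against 21.8% of all genes). Their mean deviation, relative to that of all genes, overlapped, at −0.60 to −0.02 in DIO_CR_WR against −0.29 to 0.62 in DIO. T and NK lymphocyte markers had a summed signal of 2.32 to 3.29 in DIO_CR_WR against 1.02 to 2.30 in DIO. Adipocyte markers overlapped, at 161 to 220 in DIO_CR_WR against 191 to 240 in DIO. The part of these cell types in the carrier results was not tested, and fewer cells of a type cannot be told apart from less RNA per cell.

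No carrier passed an adjusted p of 0.05, and neither did any of the other genes (0 of 26178, 0%). All 46 carriers passed the filter on dim probes, Slc25a2 and Slc25a41 through the DIO arrays alone. At an unadjusted p under 0.05, 2 carriers were higher in DIO_CR_WR, Slc25a45 and Slc25a31 (4.35% of 46, against 5.38% of all genes), and 7 were lower, with Slc25a11, Slc25a4, Slc25a26, Slc25a41, Slc25a29 and Slc25a21 among them (15.2%, against 21.8% of all genes). The 3 DIO_CR_WR arrays lay wholly above the 3 DIO arrays for 2 carriers and wholly below for 7, against 7.18% and 26.8% of all genes. The median of the carriers was −0.20, the same as that of all genes, and 23 of 46 lay below it (50%, the background share). Around that common median the members differed as follows.

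**Figure D1:**
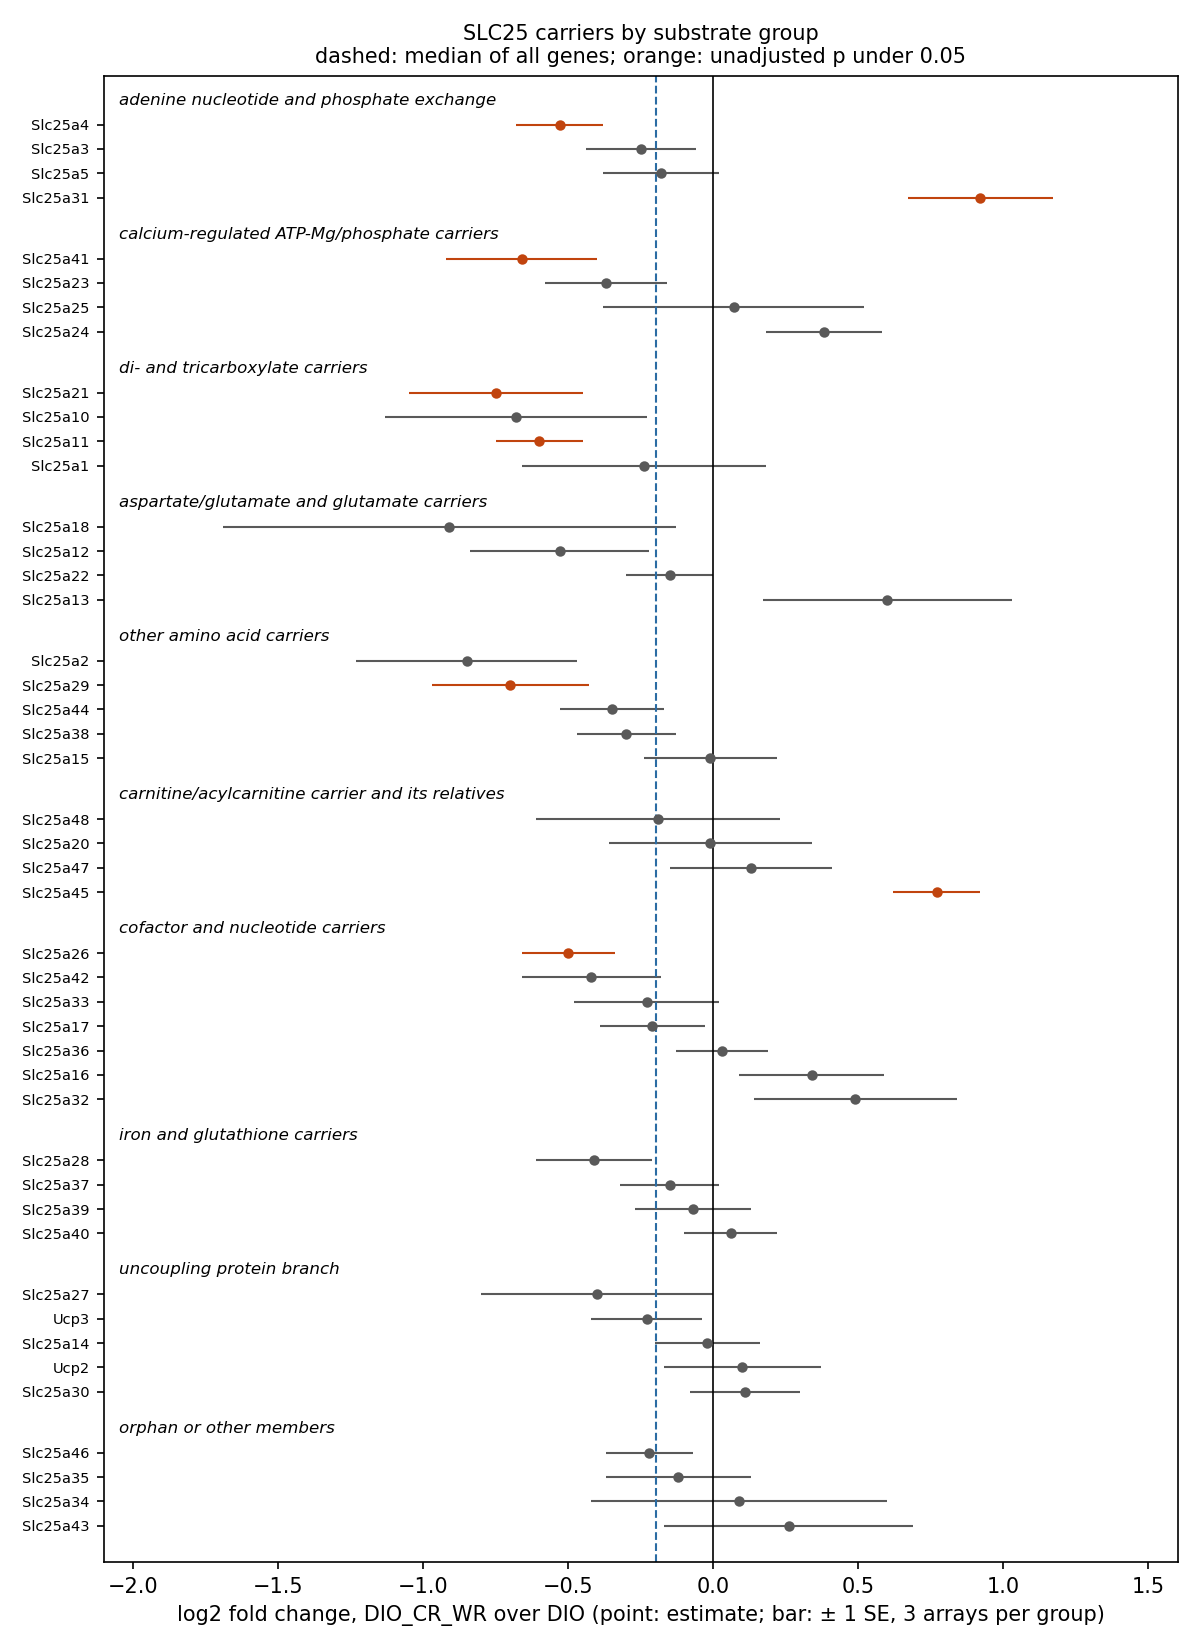
Log2 fold change of 45 SLC25 carriers, DIO_CR_WR over DIO (horizontal axis), in groups by substrate down the page. Points are estimates, bars 1 standard error from the fit over 3 arrays per group, orange marks an unadjusted p under 0.05 and the dashed line is the median of all genes at −0.20. Slc25a31 (0.92) and Slc25a45 (0.77) stand to the right. The di- and tricarboxylate carriers all lie left of 0, as do 69.6% of all 46 carriers and at least 50% of all genes. Slc25a41 and Slc25a2 are shown at fitted values although no DIO_CR_WR array read them well above background.

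Of the 4 carriers that exchange ATP, ADP and phosphate, Slc25a31 was among the higher members, Slc25a4 was among the lower ones and 2 passed no threshold. Slc25a4, the ADP/ATP exchanger known as the form of muscle and heart, had log2 values of 3.75, 3.63 and 3.81 in DIO_CR_WR, against 4.24, 4.41 and 4.13 in DIO. The groups did not overlap, and the difference was −0.53 ± 0.15 (SE, n = 3 each, limma adjusted p = 0.130). This gene has 10 spots per array, and before scaling the spot signals overlapped, from 71000 to 90800 in DIO_CR_WR against 61400 to 111000 in DIO. Spike-in scaling moves all genes by the same amount, and the difference was then −0.03; relative to the median of all genes it was −0.33 under either scaling. Muscle markers moved the same way, Atp2a1, the calcium pump of fast muscle, by −1.07 ± 0.19 and Casq1, its calcium store protein, by −1.15 ± 0.20; their part in the Slc25a4 value was not tested. Slc25a5, the ADP/ATP exchanger of most tissues, had 2.51, 2.46 and 2.48 in DIO_CR_WR, against 2.54, 3.03 and 2.44 in DIO. Its groups overlapped (−0.18 ± 0.20), and the probe used lies on chromosome 14 of mm9 while RefSeq places Slc25a5 on X, and which of them it reads was not tested; the other probe, on X, gave 0.09. Slc25a3, which brings in the phosphate for ATP synthesis, had 2.79, 3.20 and 3.36 in DIO_CR_WR, against 3.44, 3.32 and 3.34 in DIO, a difference of −0.25 ± 0.19. Slc25a31, the ADP/ATP exchanger known from germ cells, had −6.29, −5.43 and −5.60 in DIO_CR_WR, against −6.66, −6.78 and −6.62 in DIO. It was higher in DIO_CR_WR on every array (0.92 ± 0.25, limma adjusted p = 0.125), but it was well above background on only 1 of 3 arrays there and on 2 of 3 DIO arrays. The difference was 0.34 after normexp background correction with quantile normalization, 0.52 after quantile normalization alone and 0.37 with labelled age as a covariate, none of them at an unadjusted p under 0.05, and the trended and robust variance (0.92) and slide block (0.89) also ended that call.

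The carriers of ATP-Mg against phosphate, most of them opened by calcium, set the size of the matrix nucleotide pool. Of 4, 3 passed no threshold. Slc25a41, counted among the 7 lower carriers, had −6.39, −7.12 and −6.29 in DIO_CR_WR, against −6.03, −5.73 and −6.05 in DIO, and it was well above background on none of the DIO_CR_WR arrays and all 3 DIO arrays, so it has no fold and its p compares a signal with background. Slc25a24 had 1.65, 1.95 and 1.61 in DIO_CR_WR, against 1.05, 1.43 and 1.62 in DIO (0.38 ± 0.20); with slide as a block the difference was 0.69. Slc25a25 had 2.30, 2.28 and 1.82 in DIO_CR_WR, against 3.08, 1.40 and 1.70 in DIO, so that DIO replicate 1 was far above the other DIO arrays. Its difference was 0.07 ± 0.45, and −0.95 with slide as a block, where DIO replicate 1 stands for DIO. Slc25a23 differed by −0.37 ± 0.21.

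All 4 di- and tricarboxylate carriers had log2 fold changes below 0, as had 32 of all 46 carriers (69.6%). The median of all genes was itself below 0, so at least 50% of all genes lay there too. The 4 ranged from −0.75 to −0.24, with a median of −0.64, against −0.20 over all genes. With slide as a block they ranged from −0.60 to 0.16. Slc25a11, the oxoglutarate/malate exchanger of the malate-aspartate shuttle, had 2.69, 2.72 and 2.94 in DIO_CR_WR, against 3.38, 3.34 and 3.42 in DIO. The DIO arrays lay within 0.04 (SD) of each other and the groups did not overlap (−0.60 ± 0.15, limma adjusted p = 0.122). Within slide 1 the difference was also −0.60. Relative to the median of all genes it was −0.40. The Slc25a11 difference was −0.10 with spike-in scaling and −0.31 with quantile normalization alone, neither at an unadjusted p under 0.05. Slc25a21, an oxoadipate carrier, had −4.68, −4.41 and −4.17 in DIO_CR_WR, against −4.28, −3.42 and −3.31 in DIO. Its difference was −0.75 ± 0.30 over all arrays and −0.14 with slide as a block, as DIO replicate 1 read lower than the other DIO arrays. Slc25a10, the dicarboxylate carrier abundant in white fat, had 1.37, 1.74 and 0.72 in DIO_CR_WR, against 1.23, 1.82 and 2.80 in DIO. Slc25a1, the citrate exporter that feeds fatty acid synthesis, had 1.62, 2.25 and 1.16 in DIO_CR_WR, against 1.52, 1.54 and 2.69 in DIO. For both, DIO replicate 3 was the highest array and DIO_CR_WR replicate 3 the lowest, and the differences of −0.68 ± 0.45 and −0.24 ± 0.42 were near 0 with slide as a block (0.05 and 0.16).

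The malate-aspartate and glycerol phosphate shuttles move reducing equivalents into mitochondria. Of their 6 enzymes, 2 were lower at an unadjusted p under 0.05 (against 21.8% of all genes) and none higher. Gpd2, the mitochondrial glycerol phosphate dehydrogenase, differed by −0.72 ± 0.14 and Mdh1, the cytosolic malate dehydrogenase, by −0.50 ± 0.17. The groups did not overlap for either enzyme, as for 26.8% of all genes.

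None of the 4 aspartate/glutamate and glutamate carriers passed the unadjusted threshold. Slc25a12, the aspartate/glutamate exchanger known from muscle and brain, had 1.99, 1.92 and 2.60 in DIO_CR_WR, against 2.99, 2.97 and 2.14 in DIO, a difference of −0.53 ± 0.31. DIO replicate 3 was the lowest of its group and DIO_CR_WR replicate 3 the highest. Slc25a13, its counterpart best known from liver, had −2.17, −1.42 and −2.13 in DIO_CR_WR, against −3.20, −2.70 and −1.63 in DIO. The difference was 0.60 ± 0.43, and 1.29 with slide as a block. Slc25a22, a glutamate carrier, differed by −0.15 ± 0.15. Slc25a18, the other glutamate carrier, was dim and spread widely (−0.91 ± 0.78), well above background on 1 of 3 DIO_CR_WR arrays and 3 of 3 DIO arrays.

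Among the 5 other amino acid carriers, 1 was lower at an unadjusted p under 0.05, against 21.8% of all genes. The 4 with a measured fold change ranged from −0.70 to −0.01. Slc25a29, a carrier of basic amino acids, had −3.59, −3.60 and −2.81 in DIO_CR_WR, against −2.94, −2.45 and −2.49 in DIO; the groups overlapped (−0.70 ± 0.27, limma adjusted p = 0.170), and with slide as a block the difference was −0.39. Slc25a44, which brings branched-chain amino acids into brown fat mitochondria, had 1.88, 2.02 and 1.79 in DIO_CR_WR, against 1.99, 2.24 and 2.50 in DIO. The brighter probe gave −0.35 ± 0.18 and the printed dimmer probe −0.42, and DIO replicate 1 lay within the DIO_CR_WR range on the brighter one. On the dimmer probe the groups did not overlap, at 0.41, 0.55 and 0.38 in DIO_CR_WR against 0.72, 0.87 and 1.04 in DIO. With slide as a block the brighter probe differed by −0.10. Slc25a2, an ornithine carrier, had −6.40, −7.09 and −5.92 in DIO_CR_WR, against −5.39, −5.25 and −6.23 in DIO, and was well above background on none of the DIO_CR_WR arrays, so it has no fold. Slc25a38, the glycine carrier for heme synthesis, differed by −0.30 ± 0.17, and Slc25a15, the main ornithine carrier, by −0.01 ± 0.23.

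The carrier with the smallest p was Slc25a45, a relative of the carnitine carrier, probed at chr19:5885329-5885388 on the plus strand of mm9. It had −1.78, −1.53 and −1.70 in DIO_CR_WR, against −2.56, −2.43 and −2.34 in DIO. Every DIO_CR_WR array was above every DIO array, and the difference was 0.77 ± 0.15, or 1.71-fold (limma adjusted p = 0.112). It was 0.89 within slide 1, against the 1 DIO array there, and 0.71 to 0.83 when 1 array at a time was left out. With labelled age as a covariate it was 0.55, no longer at an unadjusted p under 0.05. Slc25a20, the carnitine/acylcarnitine exchanger of fatty acid oxidation, had 2.41, 2.75 and 2.14 in DIO_CR_WR, against 3.00, 2.60 and 1.74 in DIO. Its DIO arrays spanned more than the DIO_CR_WR arrays and the difference was −0.01 ± 0.35. Slc25a47 differed by 0.13 ± 0.28 and Slc25a48 by −0.19 ± 0.42. With slide as a block these 3 differed by −0.56, −0.39 and −0.92, DIO replicate 1 being the highest array for each. Cpt1b, the muscle and brown fat form of the enzyme that makes the acylcarnitine, differed by −0.78 ± 0.21. Its groups did not overlap, with DIO_CR_WR lower, as for 26.8% of all genes. Cpt1a, another form of that enzyme, differed the other way, by 0.29 ± 0.21, and its groups overlapped.

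**Figure D2:**
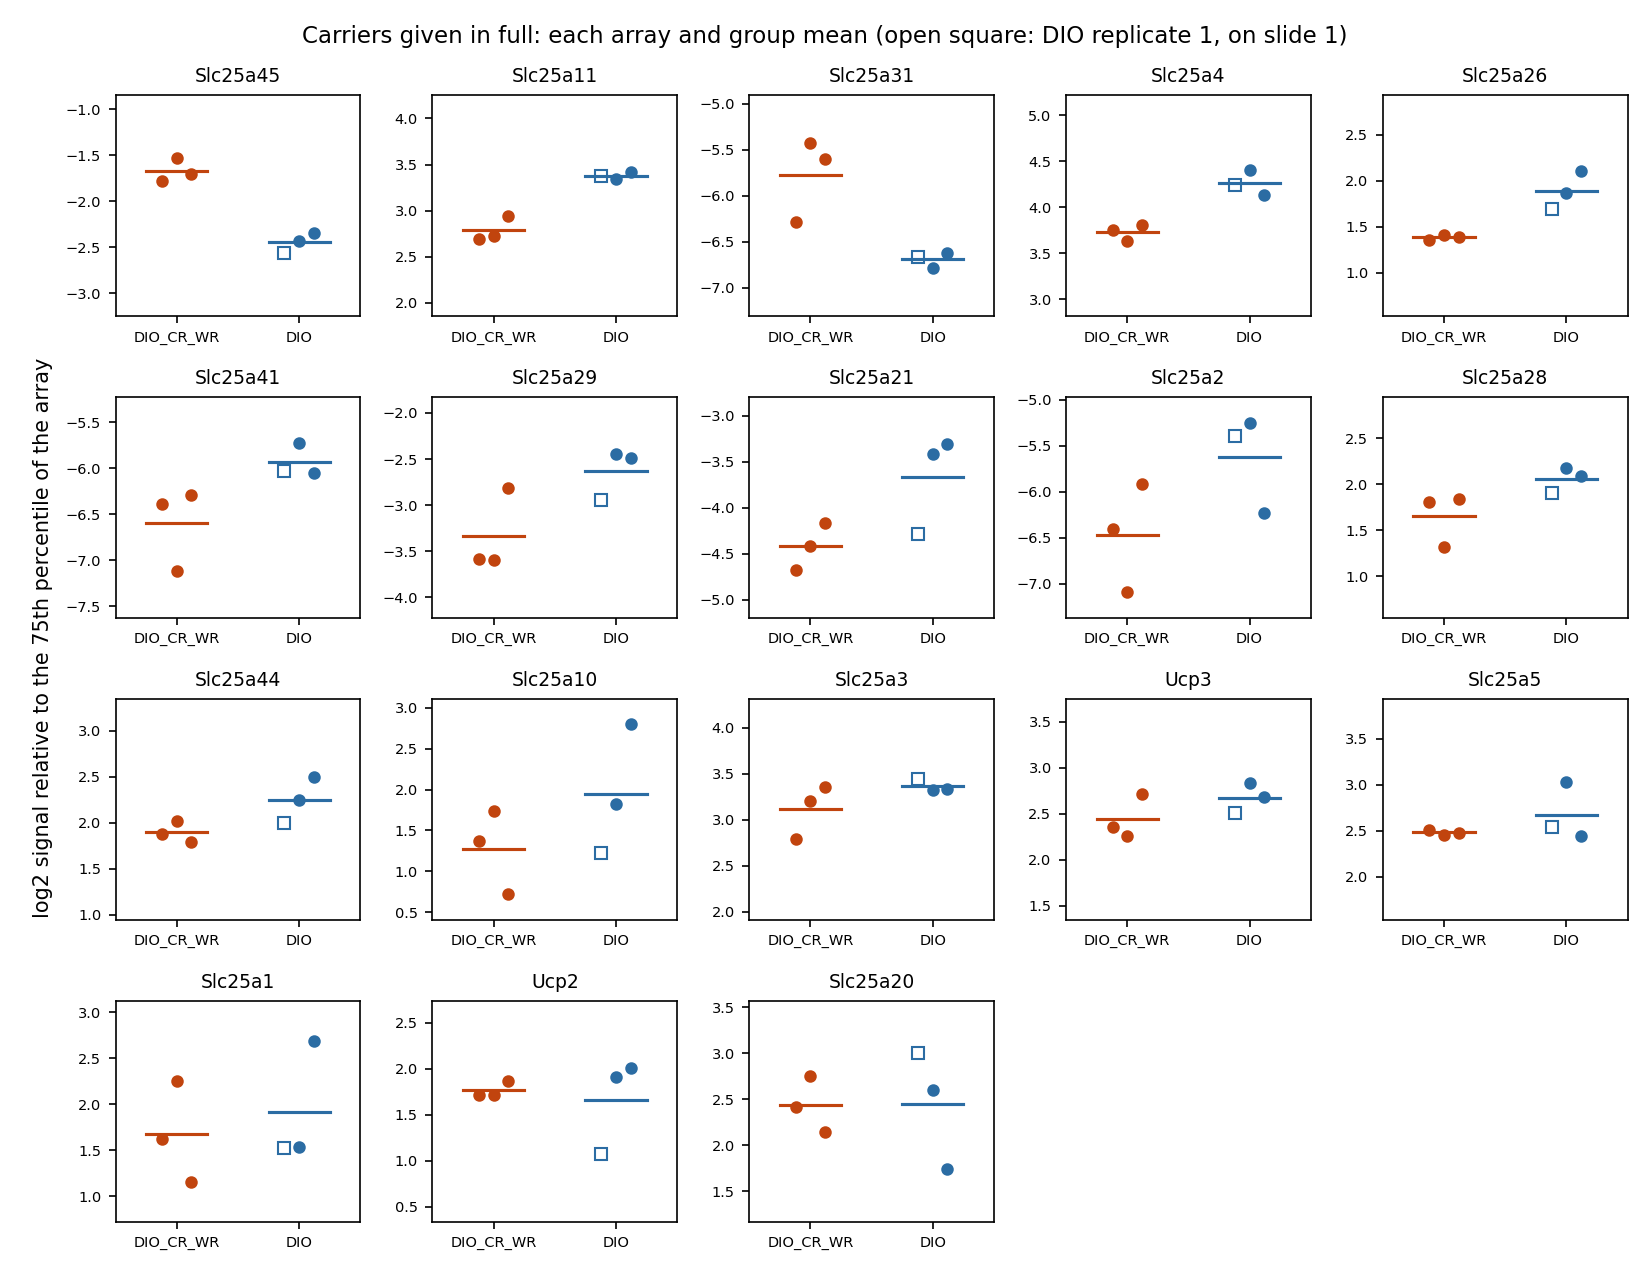
Log2 signal relative to the 75th percentile of the array (vertical axis, a separate range for each gene) for 18 carriers, those with the smallest p or named by role. Each point is 1 array, lines are group means over 3 arrays, and the open square is DIO replicate 1, the DIO array on slide 1. Slc25a45 and Slc25a11 show separated groups with the open square among the DIO arrays, while for Ucp2 the open square lies below all other arrays.

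Among the 8 cofactor and nucleotide carriers on the array, 2 were lower at an unadjusted p under 0.05, against 21.8% of all genes. Slc25a26, which carries S-adenosylmethionine, the methyl donor, had 1.36, 1.41 and 1.39 in DIO_CR_WR, against 1.69, 1.86 and 2.10 in DIO. The DIO_CR_WR arrays agreed within 0.02 (SD), all below DIO, and the difference was −0.50 ± 0.16 (limma adjusted p = 0.135). The printed probe had 0.84, 0.88 and 0.92 in DIO_CR_WR, against 1.24, 1.30 and 1.24 in DIO, a difference of −0.38. With spike-in scaling the gene's difference was 0.01, and with slide as a block −0.30. The 6 that passed no threshold ranged from −0.42 for Slc25a42, a coenzyme A carrier, to 0.49 for Slc25a32, a folate and flavin carrier. The NAD carrier Slc25a51, which the array names Mcart1 and the rule therefore left out, differed by −0.51 ± 0.19, and by −0.18 with slide as a block.

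None of the 4 iron and glutathione carriers passed the threshold. Slc25a28, an iron importer of most tissues, had 1.81, 1.32 and 1.84 in DIO_CR_WR, against 1.91, 2.18 and 2.09 in DIO, with no overlap (−0.41 ± 0.20, limma adjusted p = 0.231). Slc25a37, the iron importer of red cell precursors, differed by −0.15 ± 0.17, and its other probe gave 0.10. The glutathione carriers Slc25a39 and Slc25a40 differed by −0.07 ± 0.20 and 0.06 ± 0.16.

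The uncoupling protein branch showed no member past the threshold in 5. Ucp2, found in many tissues and immune cells, had 1.72, 1.71 and 1.87 in DIO_CR_WR, against 1.07, 1.91 and 2.01 in DIO. DIO replicate 1 lay below every other array and the other DIO arrays above every DIO_CR_WR array, giving 0.10 ± 0.27 over all arrays, 0.70 with slide as a block and −0.20 without DIO replicate 1. The summed T and NK lymphocyte signal on DIO replicate 1 was 1.02, the lowest of the DIO arrays. The mean deviation of these markers, relative to that of all genes, was −0.95 on DIO replicate 1. By that measure another DIO array was lower, at −1.06. The summed macrophage and monocyte signal was 62.2 to 75.2 in DIO_CR_WR against 55.7 to 86.7 in DIO. Its lowest value was on DIO replicate 1, as for the lymphocyte sum. By mean deviation relative to all genes, the macrophage and monocyte markers did not overlap. They read 0.24 to 0.29 in DIO_CR_WR against −0.45 to 0.08 in DIO. Of these 9 markers, 2 were higher at an unadjusted p under 0.05 (against 5.38% of all genes) and none lower. They were Msr1, a scavenger receptor (1.26 ± 0.23), and Mrc1, the mannose receptor (0.67 ± 0.15). The other 7 passed no threshold, and the list ranged from −0.22 to 1.26. The part of these cells in the Ucp2 value was not tested. Ucp3, the muscle and brown fat form, had 2.36, 2.26 and 2.71 in DIO_CR_WR, against 2.51, 2.84 and 2.68 in DIO. The groups overlapped (−0.23 ± 0.19), and the other probe gave −0.32. Ucp1, the heat-making member that the rule left out, had 3.05, 3.04 and 1.33 in DIO_CR_WR, against 3.46, 3.66 and 1.51 in DIO (−0.41 ± 0.72), with replicate 3 low in both groups. Slc25a14, Slc25a27 and Slc25a30 ranged from −0.40 to 0.11. Of the 4 orphan or other members, Slc25a46, an outer membrane protein of mitochondrial shape, had no overlap (−0.22 ± 0.15), while its dimmer probe gave 0.71. Slc25a34, Slc25a35 and Slc25a43 differed by 0.09 ± 0.51, −0.12 ± 0.25 and 0.26 ± 0.43, and with slide as a block Slc25a34 differed by −0.59 and Slc25a43 by 1.16.

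**Figure D3:**
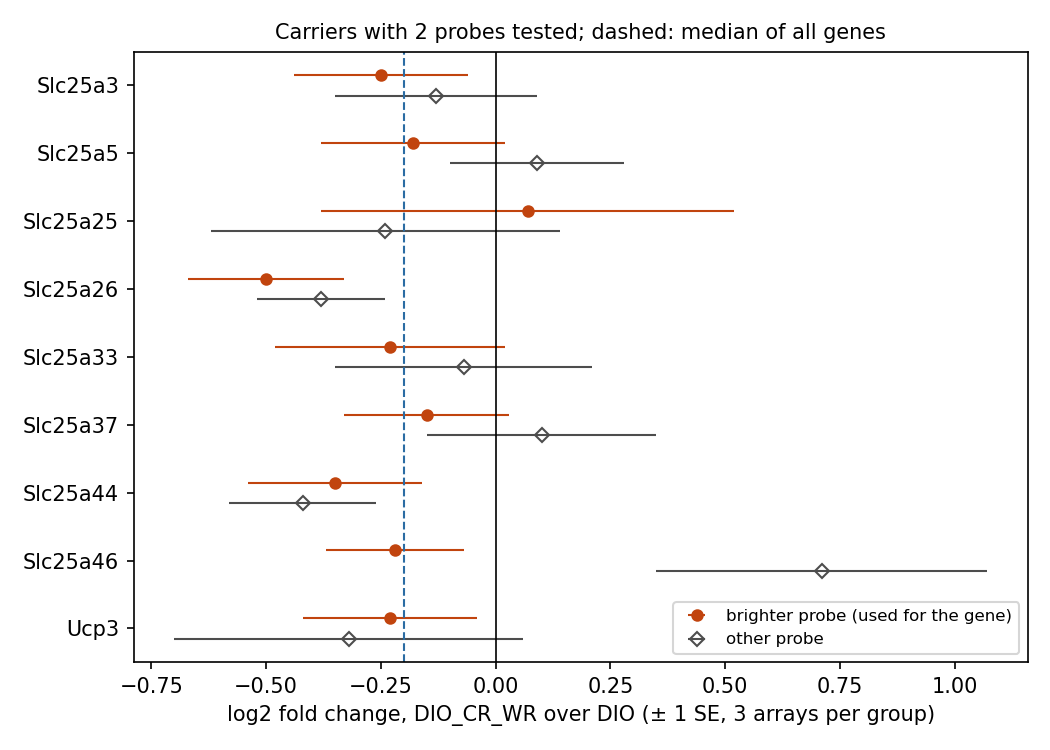
Log2 fold change, DIO_CR_WR over DIO (horizontal axis), of both probes of the 9 carriers with 2 tested probes; bars are 1 standard error over 3 arrays per group and the dashed line is the median of all genes. The probes of Slc25a26, Slc25a44 and Ucp3 lie on the same side of 0, while 4 pairs (Slc25a5, Slc25a25, Slc25a37 and Slc25a46) lie on opposite sides.

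Carrier proteins reach the inner membrane through the small Tim chaperones and the Tom complex. Of 14 import genes tested, 3 were lower at an unadjusted p under 0.05 and none higher, among them Timm13 (−0.68 ± 0.21), a small Tim chaperone, and Tomm5 (−0.65 ± 0.24), a Tom subunit, which differed by −0.19 with slide as a block. Of 21 other mitochondrial channels and transporters, 6 were lower and none higher, with Vdac3, an outer membrane channel, at −0.66 ± 0.15. These shares stand beside 21.8% of all genes lower.

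With slide as a block, where DIO is a single array, 4 carriers were higher, Slc25a45, Slc25a24, Slc25a43 and Ucp2 (8.7%, against 4.57% of all genes), and 2 lower, Slc25a11 and Slc25a25 (4.35%, against 6.01%). With spike-in scaling, 8 were higher, Slc25a45, Slc25a31, Slc25a24, Slc25a32, Slc25a13, Slc25a30, Slc25a40 and Ucp2 (17.4%, against 21%), and 0 lower (against 2.95%). Because spike-in scaling adds the same amount to every gene, it leaves each carrier's place relative to the other genes as it was.

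**Figure D4:**
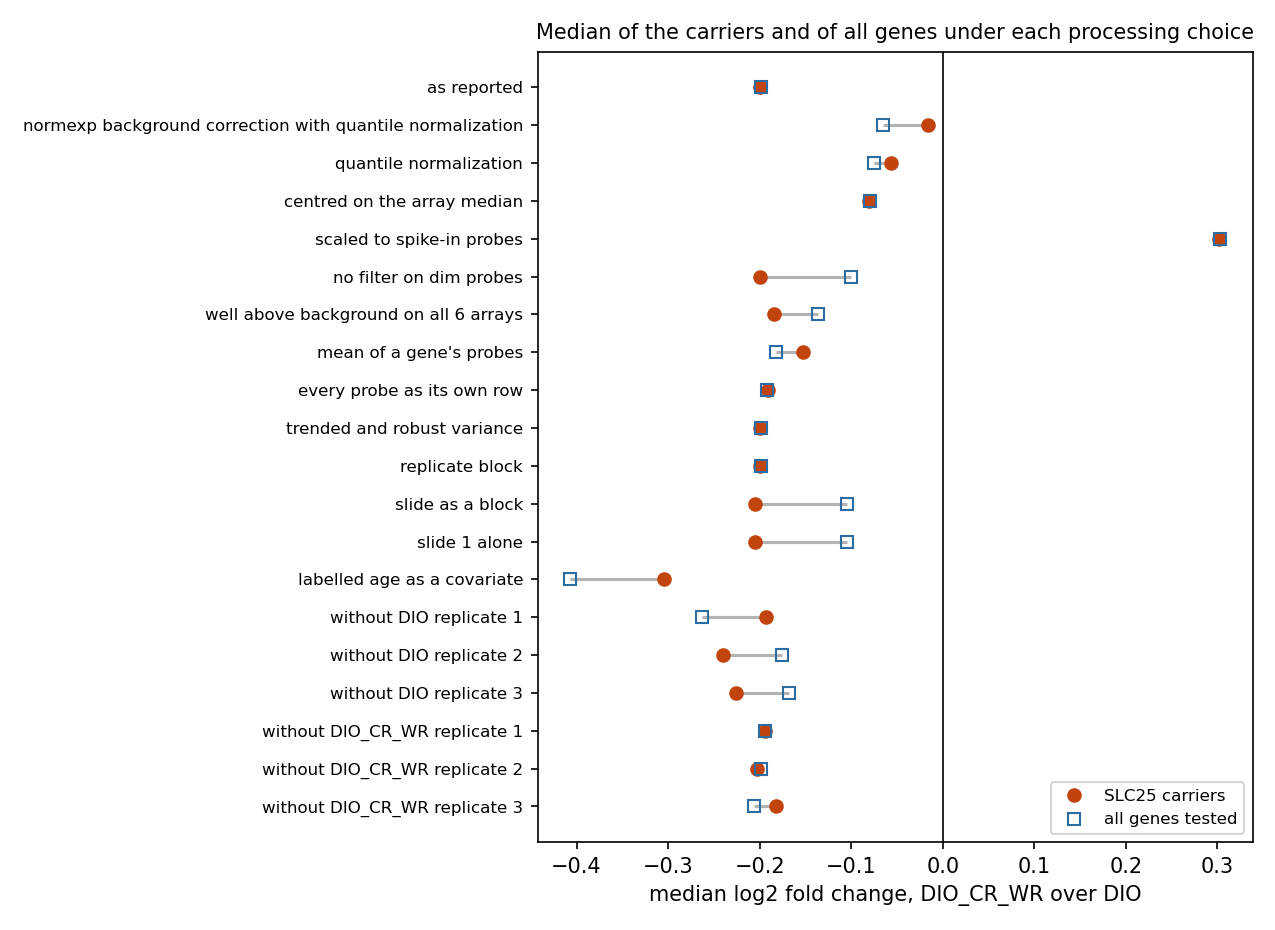
Median log2 fold change, DIO_CR_WR over DIO (horizontal axis), of the SLC25 carriers (circles) and of all genes tested (squares) under each processing choice (vertical axis). Both medians were −0.20 as reported and 0.30 with spike-in scaling, which by construction moves them alike, and they part by about 0.10 with slide as a block.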

How the data were processed

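The deposited values are spot intensities from 1 Agilent array per sample (design 028005). Per the file headers, the authors' Feature Extraction software, version 10.7.3.1 (10.7.1.1 in the submitters' processing notes), subtracted a local background and a spatial trend within each array and did not normalize between arrays. The deposited files also hold unprocessed intensities and flags. The whole-series table (18 per-sample columns) was not used, since its column names do not match the titles. In R 4.3.3, with limma 3.58.1 and data.table (version 1.17.8), the 3671 control spots and outlier spots were set aside, and log2 intensity, computed here from the deposited signal, was scaled to the 75th percentile of each array. Probes well above background on at least 3 of 6 arrays were kept (38744, of which 286 were left out for outlier flags), with the brightest probe per gene name. The groups were compared, DIO_CR_WR minus DIO, with limma's moderated test (two-sided), Benjamini-Hochberg adjusted over 26178 genes at 0.05, and checked on simulated data. The 12 carriers with the smallest p, and Slc25a1, Slc25a3, Slc25a4, Slc25a5, Slc25a10, Slc25a20, Slc25a44, Ucp2 and Ucp3 whatever their p, were given array by array, except 1 carrier that is not reported here by name and stays in all fits and counts. Values by array of Slc25a12, Slc25a13, Slc25a24 and Slc25a25 were added after their values were seen. Of each other list, the 2 members with the smallest p and Ucp1 were eligible, and Cpt1a was added after its value was seen. Members and lists were chosen with earlier results of these data known. All 46 carriers matched RefSeq by accession. No label states that replicate numbers pair the samples. Deviations of arrays of the same number correlated at −0.01, −0.12 and −0.24 across genes, against −0.11 to 0.24 for other numbers. With 3 arrays per group these correlations cannot decide whether samples were paired. Precision is limited by the number of arrays.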

Additional observations from a re-analysis of the deposited data

How the results depend on the processing

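No carrier passed an adjusted p of 0.05 under the settings tried, except without DIO replicate 1; leaving out 1 array gave 0 to 2, the 2 being Slc25a45 (0.72) and Slc25a21 (−1.05). Over all genes the adjusted count was 0 as reported, 7 with spike-in scaling, 62 with a filter for signal on all 6 arrays, 26 with a trended and robust variance, and 0 to 4022 leaving out 1 array (4022 without DIO replicate 1, 1 without DIO replicate 3). Carriers higher at an unadjusted p under 0.05 were 2 as reported, beside 1408 of all 26178 genes. There was 1 with normexp background correction plus quantile normalization (2049 of all genes), quantile normalization alone (1864), the trended variance (1579) or labelled age (1202). The all-array filter also left 1 (1491 of 19791 genes). Median centring gave 3 (1819 of all genes) and spike-in scaling 8 (5510). Leaving out 1 array gave 2 to 4, with 4 without DIO replicate 1 (2286 of all genes). Carriers lower were 7 as reported, beside 5717 of all genes. They numbered 3 with normexp plus quantile normalization (4038 of all genes), quantile normalization alone (3686) or no filter (4818 of 34641 genes). Median centring gave 2 (3986 of all genes), labelled age 4 (5137) and spike-in scaling 0 (771). Leaving out 1 array gave 1 to 7. The count was 1 without DIO replicate 2 (2454 of all genes), 2 without DIO_CR_WR replicate 2 (3599) and 4 without DIO_CR_WR replicate 1 (3574). With a replicate block, 5 carriers were lower (4952 of all genes) and 2 higher (1248 of all genes), and 0 genes passed an adjusted p of 0.05. The labels do not state that the numbers pair the samples. The carriers' median minus that of all genes, 0.00 as reported, was −0.10 with no filter, slide as a block or slide 1 alone, 0.10 with labelled age, and −0.06 to 0.07 leaving out 1 array.

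Among the 18 carriers chosen by p or role, signs turned as follows. With spike-in scaling Slc25a26 was 0.01, Slc25a28 0.10, Slc25a44 0.15, Slc25a1 0.26, Slc25a3 0.25, Slc25a5 0.32, Slc25a20 0.49 and Ucp3 0.27. With normexp plus quantile normalization Slc25a1 was 0.00, Slc25a3 0.03, Slc25a5 0.16, Slc25a20 0.49 and Ucp3 0.02. With quantile normalization alone Slc25a3 was 0.07, Slc25a5 0.05 and Slc25a20 0.19, and with median centring Slc25a20 was 0.11. With slide as a block or slide 1 alone Slc25a1 was 0.16 and Slc25a10 0.05. With labelled age Slc25a20 was 1.13 and Ucp2 −0.72. Leaving out 1 array gave Slc25a1 −0.53 to 0.15, Slc25a20 −0.37 to 0.26 and Ucp2 −0.20 to 0.28. The cause was not tested. Signal near background limits Slc25a2, Slc25a18, Slc25a21, Slc25a31 and Slc25a41.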
